A study of Glycine max with 6 samples.

Results

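The enzymes described here make flavonoids and isoflavonoids from products of the phenylpropanoid pathway. The members were every clone on the array whose single gene symbol in the probe annotation was 4CL4, CHS1, CHI1A, CHI2-A, F3H, FLS1 or IF7GT, which is 7 of the 527 genes named on the array and 22 of the 1106 named clones. CHS1 had 5 clones, CHI1A and CHI2-A had 4 each, 4CL4 and F3H had 3 each, FLS1 had 2 and IF7GT had 1. Of the 22 clones, 8 belonged to the control set Gm-b10BB, each clone of which was printed on 4 spots, so the members took up 46 spots per array.

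The pathway starts when 4-coumarate:CoA ligase activates coumaric acid and chalcone synthase joins the product with malonyl-CoA into a chalcone, which chalcone isomerase closes to a flavanone. From the flavanone, flavanone 3-hydroxylase and flavonol synthase lead to flavonols, while in legumes a separate branch leads to isoflavones, which glucosyltransferases store as glucosides. Soybean roots accumulate isoflavones, which are precursors of defence compounds, and release them into the soil, where they act as signals to nodulating bacteria.

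The study compared IsoClark, a near-isogenic line that is inefficient in iron use, with Clark, the efficient line whose genetic background it shares. IsoClark was made by repeated backcrossing of the iron inefficiency of the line T203 into Clark, so both lines carry the Clark background and IsoClark stands for 1 derived line. Plants of both lines were grown hydroponically with sufficient Fe, and root RNA of both was hybridized together to spotted cDNA arrays. There were 3 biological replicates, each a pool of plants of 1 hydroponic unit, and each was hybridized as a dye swap, so that IsoClark was in Cy3 on 3 arrays and in Cy5 on the other 3. Roots of both lines were harvested at the same growth stage.

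Line ratios are log2 values of IsoClark over Clark, with the usable arrays of a pair averaged to 1 replicate value and errors given as the SD over n = 3 replicates. A clone was tested where it lay above background in either line on at least 3 arrays and had a usable spot in every replicate, which 19 of the 22 member clones and 13430 of all clones did. Whole root tissue was measured, so fewer cells that express a gene and less RNA per cell cannot be told apart. A spotted cDNA also binds transcripts of close relatives. RefSeq gives 17 soybean genes a CHS symbol, 10 a CHI symbol and 5 a 4CL symbol, and 1 each an F3H and an FLS symbol. Relatives under other names were not counted, and the relatives of IF7GT were not counted at all. The files cannot divide the signal of any member clone among such relatives.

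Between 18.9% and 44.2% of the cDNA spots of an array were flagged as poor, and 1 to 9 of the 22 member clones had no usable spot on a given array. For that reason 42.1% of the replicate values of the tested member clones rested on a single array, against 44.1% over all tested clones, and in such a value a dye effect does not cancel. Arrays of 1 swap pair, turned to the same direction, correlated at 0.13, -0.05 and -0.09 over the tested clones. Arrays of different replicates correlated at 0.04 to 0.26 where the dye orientation was the same. Where it was opposite, they correlated at -0.30 to 0.14. The part of the dye in these correlations was not tested. Clones of 4 root genes lay above background in both lines (13 of 13), as did all 11 clones of 3 photosynthesis genes and 25 clones (IsoClark) or 26 (Clark) of 29 for seed storage and inhibitor genes and the 1 clone of the nodulin gene N-36A. None of these marker clones was called between the lines, and their part in the values below was not tested.

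In limma, 0 of the 19 tested member clones differed between IsoClark and Clark at an adjusted p of 0.05, against 0 of 13430 clones (0%) over the whole array. Adjusted p-values of the members ran from 0.796 to 0.977. Without adjustment, 2 of 19 member clones had a p under 0.05, namely the IF7GT clone and 1 clone of F3H, beside 5.53% of all clones. None of the 19 reached a 2-fold mean difference, which 0.0298% of all clones did. The members therefore gave no call at either threshold.

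The direction of the members was mixed. Of 19 clones, 11 had a mean above 0, beside 50.7% of all clones. The ratio was above 0 in all 3 replicates for 5 member clones, beside 15.8% of all clones, and below 0 in all 3 for 0 member clones, beside 13.3% of all clones. The 5 were 1 clone each of CHS1, CHI1A, CHI2-A, F3H and IF7GT, with no clone of 4CL4 or FLS1 among them. The 95% interval of the mean ratio lay within 2-fold in either direction for 17 of the 19, beside 97.9% of all clones, and the exceptions were the IF7GT clone and 4CL4 clone Gm-r1083-2896. Levels of the lines, as log2 intensities, did not overlap for 0 of the 19. Over all clones they did not overlap for 0.469% with IsoClark above and 0.305% with IsoClark below. Such ranges leave out the pairing of the lines within arrays.

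**Figure D1:**
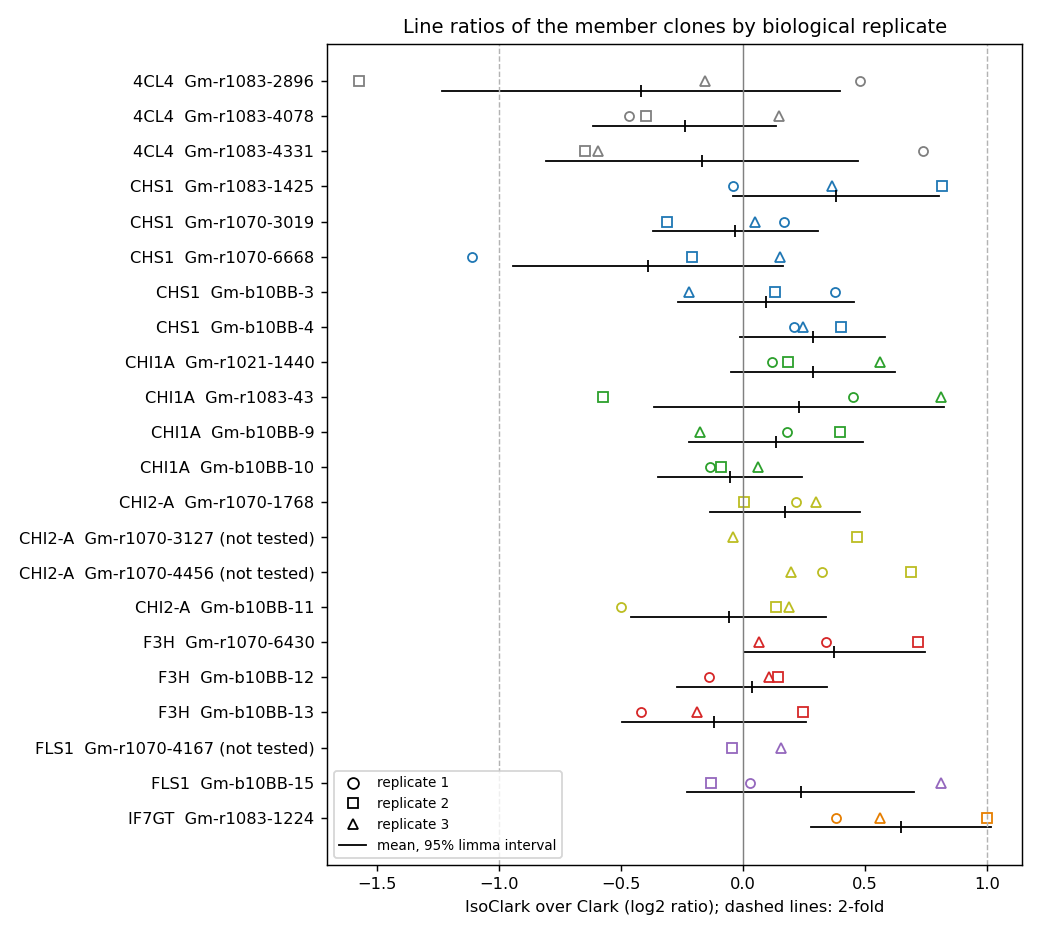
Log2 ratio of IsoClark over Clark (horizontal axis) for the 22 member clones in pathway order (rows), with 1 symbol per biological replicate and, for the 19 tested clones, the mean and its 95% limma interval as a black line. Intervals exclude 0 for F3H clone Gm-r1070-6430 and the IF7GT clone only, and neither passed adjustment.

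4CL4, a 4-coumarate:CoA ligase, provides the activated acid from which chalcones and also lignin precursors are made, and all 3 of its clones had means below 0, each of which turned sign under at least 1 alternative, which for Gm-r1083-2896 was the loss of replicate 2. Clone Gm-r1083-2896 had ratios of 0.48, -1.57 and -0.15 in replicates 1, 2 and 3. Its mean was -0.42 ± 1.05 with a 95% interval of -1.23 to 0.40 (adjusted p = 0.820, limma). This was the widest spread among the member clones, every replicate rested on 1 array, and the sign turned to 0.16 without replicate 2. In log2 intensity the clone lay at 11.58, 11.99 and 11.13 in IsoClark, against 11.11, 13.56 and 11.28 in Clark, so that replicate 2 of Clark stood alone above the rest.

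Clone Gm-r1083-4331 had 0.74, -0.65 and -0.59, again with replicate 1 above 0 and replicate 2 below it, and a mean of -0.17 ± 0.79. Its levels were 11.95, 12.56 and 11.28 in IsoClark and 11.21, 13.21 and 11.87 in Clark. Clone Gm-r1083-4078 had -0.47, -0.39 and 0.15, with a mean of -0.24 ± 0.33 and an interval of -0.61 to 0.14. Replicate 3 of this clone averaged a pair of opposed arrays, with -0.53 where IsoClark was in Cy3 and 0.82 where it was in Cy5. Replicate 2 was thus the only replicate in which all 3 clones lay below 0, and the levels of the lines overlapped for each clone.

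CHS1, chalcone synthase, catalyses the entry step of all flavonoids and isoflavonoids, and its 5 clones spread on both sides of 0. Clone Gm-r1083-1425 had -0.04, 0.82 and 0.36, with a mean of 0.38 ± 0.43 (unadjusted p = 0.0706, adjusted p = 0.796, limma). Clone Gm-r1070-6668 had -1.11, -0.21 and 0.15, with a mean of -0.39 ± 0.65 (adjusted p = 0.796, limma). These clones of the same symbol therefore lay at the opposite ends of the CHS1 range. Both were dim, with IsoClark above background on 4 and 2 of 6 arrays and Clark on 3 of 6 arrays for each. These counts include arrays with no usable spot. Replicates 2 and 3 of Gm-r1083-1425 each rested on 1 array, on which neither line was above background. For Gm-r1070-6668, IsoClark was above background on none of its usable arrays.

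Clone Gm-r1070-3019 of CHS1 was above background in both lines on all 6 arrays and had 0.17, -0.31 and 0.05. Its mean was -0.03 ± 0.25 with an interval of -0.37 to 0.31. It lay at 12.68, 11.98 and 12.19 in IsoClark, against 12.51, 12.29 and 12.13 in Clark, and the ranges of the lines overlapped.

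Both control clones of CHS1 had a larger mean ratio between dyes than between lines, a contrast that was not itself tested. Control clone Gm-b10BB-4 had replicate ratios of 0.21, 0.40 and 0.25, the closest replicates of any CHS1 clone, with a mean of 0.29 ± 0.10 and an interval of -0.01 to 0.58 (unadjusted p = 0.0561, adjusted p = 0.796, limma). Single arrays gave 0.58, 0.90 and 0.87 where IsoClark was in Cy5 and -0.17, -0.10 and -0.38 where it was in Cy3. The sign of the line ratio followed the dye in every replicate, and the means of the orientations were 0.79 and -0.21. Among tested clones usable on all 6 arrays, opposite signs in the orientations occurred for 1 of 8 member clones and 7.68% of all clones. In the same set, 1 sign throughout occurred for 0 of 8 member clones and 4.74% of all clones.

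The signal of a dye can be compared directly within each pair as the ratio of Cy5 over Cy3, in which the lines cancel. For Gm-b10BB-4 this dye ratio was 0.38, 0.50 and 0.62, with a mean of 0.50 ± 0.12 (95% interval 0.26 to 0.74, unadjusted p = 0.000613, adjusted p = 0.0853, limma). For control clone Gm-b10BB-3 it was 0.28, 0.36 and 0.29, with a mean of 0.31 ± 0.04 (adjusted p = 0.282, limma). Neither passed adjustment over the 2618 clones compared, of which 0 did (0%). An unadjusted p under 0.05 was reached by 2 of 8 member clones, both CHS1, beside 12.3% of all clones. The other 6 control clones had dye ratios between -0.13 and 0.13.

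The line ratio of Gm-b10BB-3 was 0.38, 0.13 and -0.22, with a mean of 0.10 ± 0.30, so its replicates differed in sign where those of the dye ratio did not. This control clone is annotated with the same cDNA sequence record as Gm-r1083-1425, so that 1 cDNA may be read at separate places of the array. Clone Gm-r1083-1425 minus the control clone was -0.42, 0.68 and 0.59 in the 3 replicates, a mean difference of 0.28 ± 0.61. The copies thus differed by more than either's mean line ratio in replicates 1, 2 and 3, with no common sign.

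**Figure D2:**
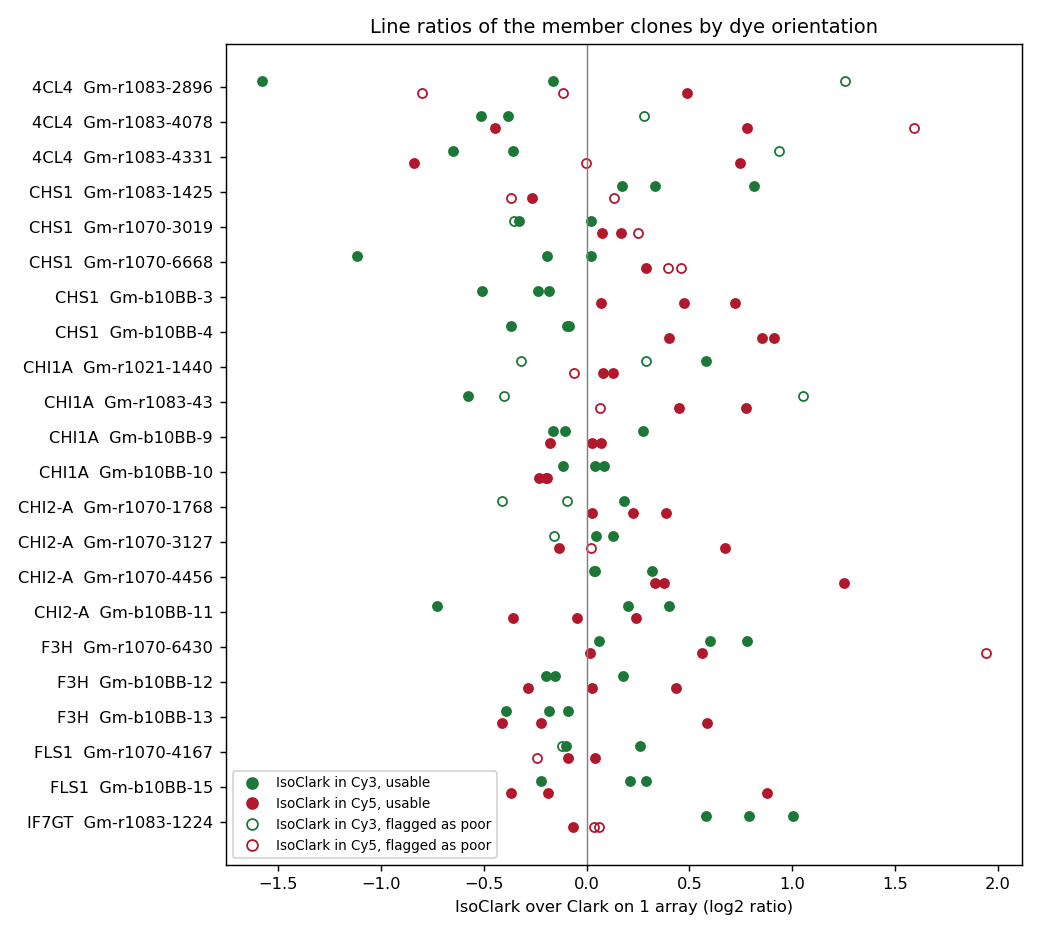
Log2 ratio of IsoClark over Clark on single arrays (horizontal axis) for the 22 member clones (rows), with arrays that had IsoClark in Cy3 in green above those that had it in Cy5 in red; the ratios were normalized with no spot flags used, and open circles mark arrays on which the clone had no usable spot. The orientations do not overlap for 7 of the 21 clones compared with no flags used, among them all 5 clones of CHS1 and the IF7GT clone. Over all 17818 clones compared, they do not overlap for 7.48% with IsoClark in Cy5 above and 8.15% with IsoClark in Cy3 above.

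CHI1A and CHI2-A, chalcone isomerases, close the chalcone ring, and RefSeq places them on the same chromosome with 1 gene, the isomerase gene CHI1B1, between them. Among the CHI1A clones, control clone Gm-b10BB-10 had the smallest spread, with -0.13, -0.09 and 0.06 and a mean of -0.05 ± 0.10 (interval -0.35 to 0.24). Its levels were 13.26, 13.58 and 13.35 in IsoClark, against 13.39, 13.67 and 13.28 in Clark. No replicate of this clone differed by more than 0.13 between the lines, and its 4 spots had a median SD of 0.17 within an array.

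The other CHI1A clones lay above 0 in the mean, though each turned sign under at least 1 alternative. Clone Gm-r1021-1440 had 0.12, 0.18 and 0.56, with a mean of 0.29 ± 0.24 (interval -0.05 to 0.62, adjusted p = 0.796, limma). Each of its replicates came from 1 array, and its levels of 11.37, 12.24 and 10.52 in IsoClark overlapped those of 11.25, 12.05 and 9.96 in Clark. Clone Gm-r1083-43 had 0.45, -0.57 and 0.81, with a mean of 0.23 ± 0.72, and control clone Gm-b10BB-9 had 0.18, 0.40 and -0.17, with a mean of 0.14 ± 0.29. Control clones Gm-b10BB-9 and Gm-b10BB-10 share a cDNA sequence record and differed by 0.32, 0.49 and -0.24, a mean of 0.19 ± 0.38. In no replicate did all 4 CHI1A clones share a sign.

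For CHI2-A, 2 of 4 clones were tested. Clone Gm-r1070-1768 had 0.22, 0.01 and 0.30, with a mean of 0.17 ± 0.15 (interval -0.13 to 0.48, adjusted p = 0.801, limma). Control clone Gm-b10BB-11 had -0.50, 0.13 and 0.19, with a mean of -0.06 ± 0.38, and both arrays of its replicate 1 were below 0, at -0.64 with IsoClark in Cy3 and -0.35 with IsoClark in Cy5. The first replicate thus stood apart in this clone and was not set by 1 orientation.

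The untested CHI2-A clones failed the test's conditions in different ways. Clone Gm-r1070-4456 had usable spots on all 6 arrays, all with ratios above 0, and replicate values of 0.32, 0.69 and 0.20, but IsoClark was above background on only 2 arrays and Clark on 1. Clone Gm-r1070-3127 was above background in both lines on all 6 arrays but had no usable spot in replicate 1, and had 0.47 and -0.04 in replicates 2 and 3. For Gm-r1070-4456, most arrays thus give only a bound on the level in each line.

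**Figure D3:**
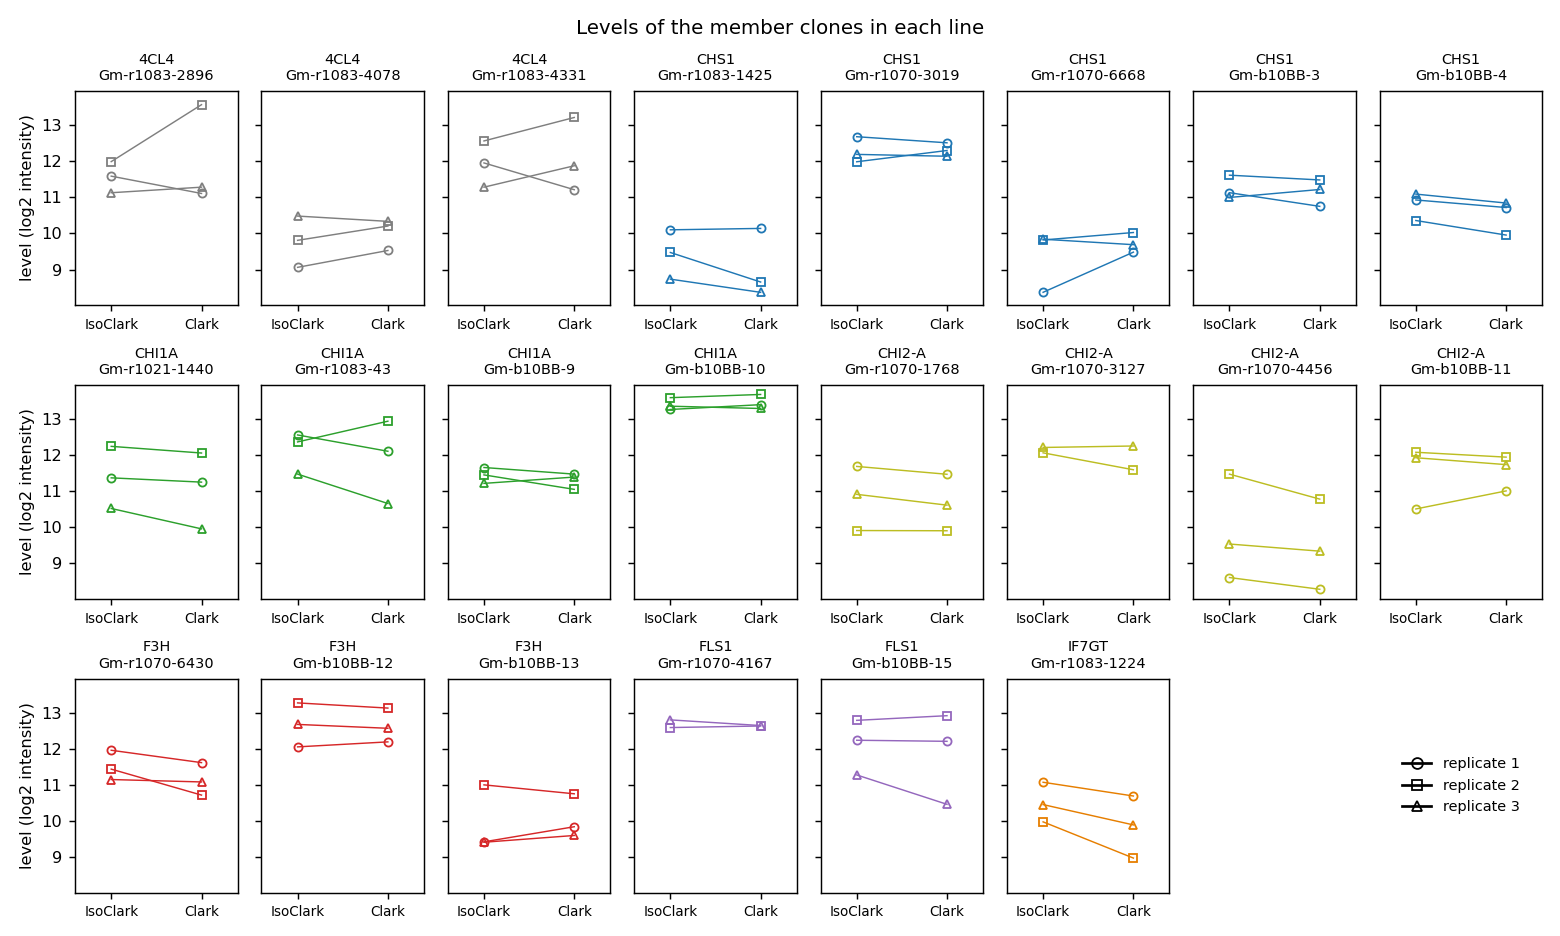
Level of each of the 22 member clones in IsoClark (left) and Clark (right) of each panel as log2 intensity after normalization, with a line joining the values of 1 biological replicate; levels can be compared between lines within a panel but not between clones. The ranges of the lines overlap in every panel, as they do for nearly all clones tested.

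F3H, flavanone 3-hydroxylase, turns flavanones into dihydroflavonols and so leads away from isoflavones. Clone Gm-r1070-6430 had 0.34, 0.72 and 0.07, with a mean of 0.38 ± 0.33 and an interval of 0.0032 to 0.75 (unadjusted p = 0.0485, adjusted p = 0.796, limma). On its 5 usable arrays the ratio was 0.67, 0.76 and 0.07 with IsoClark in Cy3 and 0.02 and 0.67 with IsoClark in Cy5, so all 5 were above 0. On the array that read 0.76, of replicate 2, neither line was above background, at 2.04 times the local background in IsoClark and 1.57 times in Clark. The sixth spot was flagged as poor and read 1.94, and with no flags used the mean was 0.66. With print-tip loess the mean was 0.05. The levels were 11.96, 11.44 and 11.15 in IsoClark and 11.62, 10.72 and 11.08 in Clark, and they overlapped.

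Control clone Gm-b10BB-13, annotated with the same F3H cDNA sequence record, lay on the other side of 0 in the mean. The control clone had -0.42, 0.25 and -0.19, with a mean of -0.12 ± 0.34, on signals above background on 3 of 6 arrays in each line. Clone Gm-r1070-6430 minus the control clone was 0.76, 0.47 and 0.25, a mean difference of 0.49 ± 0.25 that had 1 sign in all 3 replicates. The other F3H control clone, Gm-b10BB-12, was above background on all 6 arrays in both lines and had -0.14, 0.14 and 0.11, with a mean of 0.04 ± 0.15 (interval -0.27 to 0.34). The control clone detected on every array thus gave the narrower interval, and it included 0.

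FLS1, flavonol synthase, makes flavonols such as kaempferol and quercetin from the products of F3H. Control clone Gm-b10BB-15 had 0.03, -0.13 and 0.81, with a mean of 0.24 ± 0.50 (interval -0.23 to 0.70, adjusted p = 0.820, limma). The high value of replicate 3 came from the array of replicate 3 with IsoClark in Cy5, which read 1.32 on the 1 usable spot of 4, while its partner array read 0.30. Without replicate 3 the mean was -0.05. Clone Gm-r1070-4167 had no usable spot in replicate 1 and was not tested, and its ratios in replicates 2 and 3 were -0.04 and 0.16. The levels of this clone were 12.59 and 12.80 in IsoClark, against 12.63 and 12.64 in Clark.

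**Figure D4:**
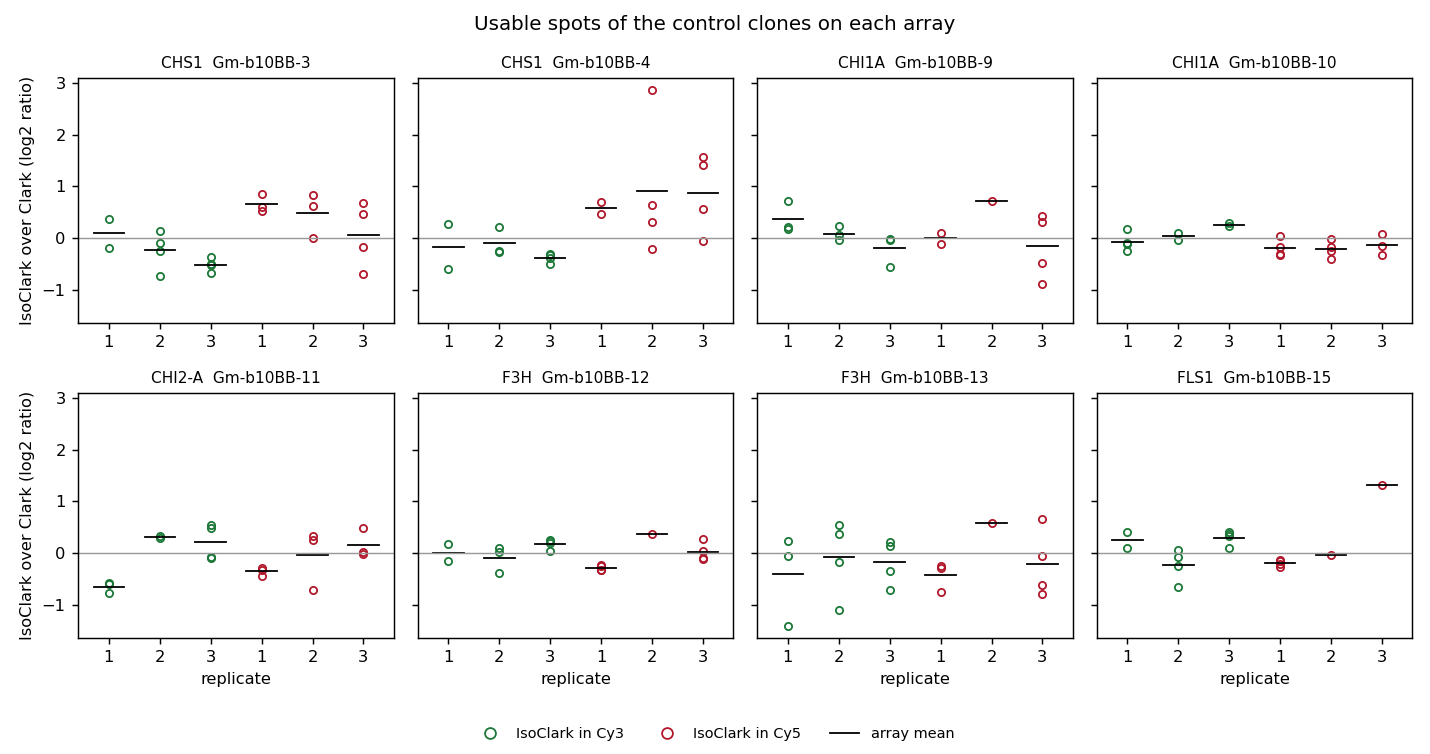
Log2 ratio of IsoClark over Clark (vertical axis) of each usable spot of the 8 control clones, by replicate (horizontal axis), with arrays that had IsoClark in Cy3 in green on the left and those that had it in Cy5 in red on the right of each panel and a bar at the array mean. Up to 4 spots were usable per array, and CHI1A clone Gm-b10BB-10 has the tightest spots while FLS1 clone Gm-b10BB-15 has a single spot at 1.32.

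The 8 control clones allow the spread of spots to be set beside the spread of replicates. Of their 192 spots on the 6 arrays, 145 were usable. The SD between spots of 1 clone on 1 array had a median of 0.25 over the clones, against 0.37 between arrays and 0.30 between replicates. Spots of CHS1 clone Gm-b10BB-4 on the Cy5-IsoClark array of replicate 2 ranged from -0.21 to 2.87, so its array value of 0.90 rested on 4 discordant spots. Spots of F3H clone Gm-b10BB-12 had a median SD of 0.18 within an array.

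IF7GT, the glucosyltransferase that attaches glucose to the 7-hydroxyl of isoflavones, had the highest mean ratio of the member clones in the processing reported. F3H clone Gm-r1070-6430 exceeded it with no flags used, with the 6 arrays fitted with a dye term, with the deposited ratios and with the replicate 3 array turned. Other member clones also exceeded it under some alternatives, such as CHS1 clone Gm-b10BB-4 with the replicate 3 array turned and CHI1A clone Gm-r1083-43 without replicate 2. RefSeq gives UGT1 both as a synonym of IF7GT and as the symbol of another gene, and clones named UGT1 were not counted as IF7GT. The 3 tested UGT1 clones had means of -0.09, -0.05 and 0.09. The 1 clone named IF7GT, Gm-r1083-1224, had 0.38, 1.00 and 0.56 in replicates 1, 2 and 3. The mean was 0.65 ± 0.32, or 1.57-fold higher in IsoClark, with an interval of 0.28 to 1.02 (unadjusted p = 0.00424, adjusted p = 0.796, limma). The difference did not pass adjustment: of the 13430 clones tested, 83 had a larger absolute ratio and 38 a smaller p. Among the 815 named clones tested, 3 had a larger absolute ratio and 1 a smaller p. Levels were 11.07, 9.98 and 10.46 in IsoClark, against 10.69, 8.98 and 9.89 in Clark. IsoClark was above Clark in every replicate. The ranges of the lines overlapped, as they did for nearly all clones tested.

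The arrays behind the IF7GT ratio were unevenly split between the dye orientations. Usable spots gave 0.84, 1.00 and 0.56 on the 3 arrays with IsoClark in Cy3 and -0.08 on the 1 usable array with IsoClark in Cy5. Replicates 2 and 3 therefore held 1 orientation only. With no flags used, the arrays with IsoClark in Cy3 read 0.79, 1.01 and 0.58, and those with IsoClark in Cy5 read -0.06, 0.06 and 0.04. The orientations did not overlap, the mean ratio was 0.40, and the dye ratio, Cy5 over Cy3, was -0.39 ± 0.11 (95% interval -0.67 to -0.11, unadjusted p = 0.0115, adjusted p = 0.593, limma). An unadjusted p under 0.05 in this dye comparison was reached by 5 of 21 member clones and 8.05% of all 17818 clones. The clone was also dim. On the array that alone made up replicate 2, neither line was above background, at 1.68 times the local background in IsoClark and 1.28 times in Clark. Over the 6 arrays IsoClark was above background on 4 and Clark on 3, but on no usable array were both lines above it. On the array that alone made up replicate 3, Clark was above background and IsoClark was not. Both lines were above background only on the arrays of replicates 2 and 3 with IsoClark in Cy5, whose flagged spots read 0.06 and 0.04. The part of the dye and of the low signal in the ratio was not tested.

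The other 4 member clones with such a p for the dyes were all CHS1, and in all 5 CHS1 clones the orientations did not overlap when no flags were used. Line ratios with IsoClark in Cy5 were wholly above those with IsoClark in Cy3 for 4 of 21 member clones, all CHS1, beside 7.48% of all clones. They were wholly below for 3 of 21, namely CHS1 clone Gm-r1083-1425, CHI1A clone Gm-b10BB-10 and the IF7GT clone, beside 8.15% of all clones. The dye ratios of the 4 CHS1 clones were 0.45 for Gm-b10BB-4, 0.41 for Gm-r1070-6668, 0.37 for Gm-b10BB-3 and -0.30 for Gm-r1083-1425. The last shares its sequence record with Gm-b10BB-3 and had the opposite sign. No adjusted p for the dyes was under 0.593 in these 5 clones.

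The spread between clones of the same symbol was largest for CHS1. The means of the tested clones ran from -0.42 to -0.17 for 4CL4, from -0.39 to 0.38 for CHS1, from -0.05 to 0.29 for CHI1A, from -0.06 to 0.17 for CHI2-A and from -0.12 to 0.38 for F3H. The SD between clones was 0.30 for CHS1 and 0.25 for F3H, against a median of 0.15 over the 190 named genes with at least 2 tested clones. It was 0.13 for 4CL4, 0.15 for CHI1A and 0.16 for CHI2-A. All of these genes but 4CL4 had clones on both sides of 0, and differences between clones were not tested.

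Other genes of phenylpropanoid, flavonoid and isoflavonoid synthesis were described from a fixed list of symbols, 15 of which were on the array and 14 tested. None of their 23 tested clones was called in either direction, beside 0% of all clones. An unadjusted p under 0.05 in limma was reached by 2 of the 23, beside 5.53% of all clones. Of the 14 genes, 4 had a mean above 0 and 10 below. Of the clones, 8 (34.8%) lay above 0 and 15 below, beside 50.7% of all clones above 0. The median over the clones was -0.05, beside 0.0031 over all clones tested. The count of genes below 0 was 7 of 14 with no background correction and with the replicate 2 array turned, 8 with the signal median and 13 with print-tip loess. The highest were IFR1, an isoflavone reductase, at 0.24 ± 0.23, 4CL3, another ligase, at 0.21 ± 0.27, and CHI4A, an isomerase-family gene, at 0.14 ± 0.24. The lowest were DFR1, the dihydroflavonol reductase of anthocyanin synthesis, at -0.22 ± 0.22, CHI1B1, the isomerase gene between CHI1A and CHI2-A, at -0.21 ± 0.16, and IFS1, the isoflavone synthase that opens the isoflavone branch, at -0.17 ± 0.08. The smallest adjusted p among them was 0.796 (limma). The signs of IFR1, 4CL3, CHI4A and DFR1 turned under at least 1 alternative, while CHI1B1 and IFS1 were below 0 under each alternative run for them, CHI1B1 at only -1e-04 with print-tip loess.

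The named clone of another gene with the most similar replicate values was sought for the brightest tested clone of each member, by the root mean square difference over the 3 replicates. For IF7GT it was a clone of KASI, a ketoacyl-ACP synthase of fatty acid synthesis, with 0.21, 0.72 and 0.22 and a difference of 0.27, and 0 of 814 clones came within 0.1. For 4CL4 clone Gm-r1083-4331 it was BZIP112, a bZIP transcription factor gene, with 0.62, -0.44 and -0.45 and a difference of 0.16. For CHS1 clone Gm-r1070-3019 it was VSPA, a vegetative storage protein, at 0.05, and 26 clones of other genes came within 0.1. These values describe 3 replicates only. The clones nearest to the control clones of CHI1A, CHI2-A, F3H and FLS1 belonged to genes with no name beyond an identifier, LOC778089 at 0.03, LOC547734 at 0.04, LOC778146 at 0.01 and LOC732577 at 0.08. Within 0.1 there were 35, 5, 29 and 1 clones of other genes, so that nearness was common for clones whose ratios lay close to 0.

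Under up to 18 alternatives per clone, 39 of 324 ratios changed sign and 0 were called. Of the 19 clones, 15 changed sign at least once, 6 of them under another background correction, normalization, flag or filter setting and the others only with the deposited ratios, a turned array, the day as a term or a replicate left out. The other 4 kept their sign in the 16 alternatives that could be run for each: CHS1 clones Gm-r1083-1425 (0.08 to 0.59) and Gm-r1070-6668 (-0.85 to -0.02), F3H clone Gm-r1070-6430 (0.05 to 0.75) and IF7GT (0.27 to 0.78). The lowest IF7GT value arose when the replicate 3 array with IsoClark in Cy3 was turned, the array whose deposited column ran opposite to its label.

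**Figure D5:**
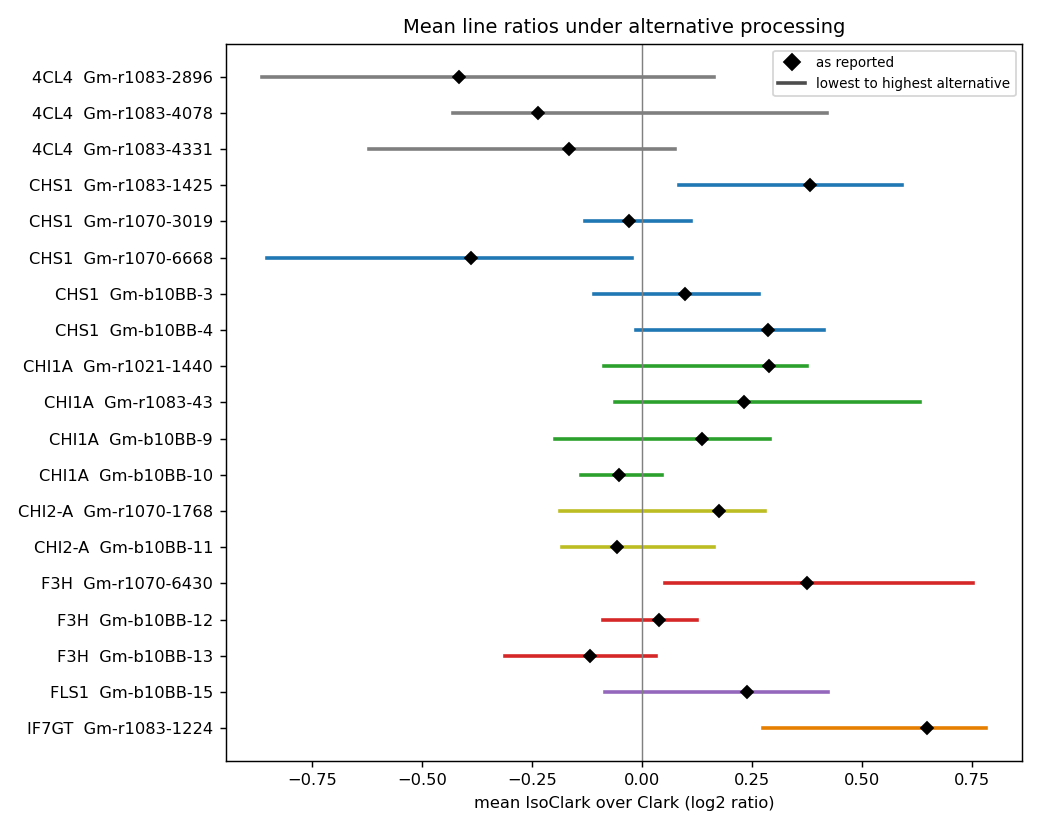
Mean log2 ratio of IsoClark over Clark (horizontal axis) for the 19 tested member clones (rows), with a diamond at the value reported and a bar from the lowest to the highest value over the alternatives. The bars of 4 clones stay on 1 side of 0, among them IF7GT at 0.27 to 0.78.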

How the data were processed

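The members and gene lists were chosen with earlier results of these data known. ImaGene 6.1.0 was the authors' quantification program, per the file headers. Deposited scanner tables hold the intensity of each spot and its background in each dye on a linear scale, with quality flags. A deposited table holds the authors' log2 ratios per array, of unstated correction and scale. Set against Cy5 over Cy3, its columns correlated at -0.71, 0.79, -0.81, 0.70, 0.72 and 0.64 (IsoClark in Cy3, then in Cy5, of replicates 1, 2 and 3), so the replicate 3 column with IsoClark in Cy3 ran opposite to its label. Column medians were 0.11, 0.05, 0.08, -0.06, 0.04 and -0.28. The table served as an alternative.

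Gene names are given for table rows, and rows were tied to clones through the print layout of 48 blocks and 50 plates. For 96 spots, none of a member, the row was unsure and no name was used. Of 19200 rows, 1158 had 1 symbol, 13 several and 18029 none; 523 of 527 genes matched Glycine_max_v4.0. Its gene order was used only to name neighbours, and no sequences were used.

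In limma 3.58.1 (R 4.3.3), background was corrected by normexp (offset 50) on the signal mean, and arrays were normalized by global loess with weight 0 for blank and poor spots. Above background means a signal mean over the background median plus 2 background SD. Ratios were turned by the dye in the labels (the protocol text of the replicate 2 array with IsoClark in Cy5 names the dyes the other way round), spots of a clone and arrays of a pair were averaged, and lmFit and eBayes tested the 3 values against 0, with Benjamini-Hochberg adjustment over all tested clones at 0.05. The dye comparison used tested clones usable on all 6 arrays. In simulated ratios of the line comparison (13430 clones), log2 shifts of 2 and of 1 were each planted in 100 clones. Shifts of 2 were recovered in 91% and shifts of 1 in 48% of these clones, with 5 false calls. The shares describe the simulated ratios only. The p-values measure the spread between 3 replicate values, which includes array noise, and their number limits the precision; the median signal over background was 3.31 to 8.91 in Cy3 and 5.12 to 18.3 in Cy5. All member clones were named. From the pathway list the 3 highest and 3 lowest genes were named, and for each member's brightest tested clone the nearest clone of another gene. Alternatives changed the background correction, normalization, flags, filter, values used, dye or day terms, array direction and replicates.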

Additional observations from a re-analysis of the deposited data

Results flagged for a closer look

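The line ratio of CHS1 control clone Gm-b10BB-4 was above 0 on all 3 arrays with IsoClark in Cy5 and below 0 on all 3 arrays with IsoClark in Cy3, and the orientation means differed by 1.00 on the log2 scale. The difference between the orientations was tested as the dye ratio of this clone, whose adjusted p was 0.0853 (limma). Over the alternatives its adjusted p ran from 0.0498 without replicate 1, where the dye ratio was 0.56, to 0.750 without replicate 3, where it was 0.44; print-tip loess gave 0.321, and leaving the flags unused gave 0.593. Opposite signs of this kind occurred in 7.68% of the tested clones usable on all 6 arrays.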

How the results depend on the processing

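The count of 0 clones called between the lines held under every alternative except the day of quantification as a term, which called 5 (0 members) with 1 residual degree of freedom fewer. Clones 2-fold apart in the mean numbered 4. The count was 0 with no background correction, 9 with normexp on the signal median, 1 with print-tip loess, 1 with no spot flags used, 141 with the deposited log ratios turned by label and 101 with their replicate 3 column as deposited. It was 15 with the day as a term, 2 with the replicate 2 array with IsoClark in Cy5 turned, 0 with both arrays of every pair usable, and 14 to 34 with a replicate left out. Fitting the 6 arrays with a dye term gave 2 with the replicate block and 2 without it, and 0 calls in both; the block correlation was -0.01, and the block changed no call. The alternatives with the column as deposited and with both arrays usable were chosen after seeing the data. Clones called between the dyes were 0, but 37 after median centring, and 0 to 41 with a replicate left out.

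Ratios that changed sign were as follows; the cause was not tested. With the deposited ratios turned by label, 4CL4 Gm-r1083-4078 had 0.12, CHI1A Gm-b10BB-9 -0.20, CHI2-A Gm-r1070-1768 -0.15, CHS1 Gm-b10BB-3 -0.11, FLS1 Gm-b10BB-15 -0.0090 and IFR1 -0.036. With their replicate 3 column as deposited, 4CL4 Gm-r1083-4078 had 0.42, 4CL4 Gm-r1083-4331 0.064, CHI1A Gm-b10BB-9 -0.13, CHI1A Gm-r1021-1440 -0.042, CHI2-A Gm-r1070-1768 -0.19, F3H Gm-b10BB-12 -0.033, FLS1 Gm-b10BB-15 -0.085, 4CL3 -0.035 and IFR1 -0.11. With no flags used, 4CL4 Gm-r1083-4078 had 0.22 and CHI1A Gm-b10BB-9 -0.013. With the signal median, CHI1A Gm-b10BB-9 had -0.033 and CHI1A Gm-r1083-43 -0.016. With print-tip loess, CHI1A Gm-b10BB-10 had 0.046, CHI2-A Gm-b10BB-11 0.0046, F3H Gm-b10BB-12 -0.020, 4CL3 -0.081 and CHI4A -0.075. With the day as a term, 4CL4 Gm-r1083-4331 had 0.060, CHS1 Gm-r1070-3019 0.019 and F3H Gm-b10BB-12 -0.0065. With the replicate 2 array turned, CHI1A Gm-b10BB-9 had -0.10, CHI1A Gm-b10BB-10 0.017, CHS1 Gm-b10BB-3 -0.068, CHS1 Gm-b10BB-4 -0.015, F3H Gm-b10BB-12 -0.088 and DFR1 0.056. With the replicate 3 array turned, CHI1A Gm-r1021-1440 had -0.087 and F3H Gm-b10BB-12 -0.024. With a replicate left out, the mean ranged from -0.86 to 0.16 for 4CL4 Gm-r1083-2896, -0.62 to 0.074 for 4CL4 Gm-r1083-4331, -0.13 to 0.11 for CHS1 Gm-r1070-3019, -0.044 to 0.25 for CHS1 Gm-b10BB-3, -0.061 to 0.63 for CHI1A Gm-r1083-43, -0.18 to 0.16 for CHI2-A Gm-b10BB-11, -0.016 to 0.13 for F3H Gm-b10BB-12, -0.30 to 0.030 for F3H Gm-b10BB-13 and -0.050 to 0.42 for FLS1 Gm-b10BB-15.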
